A study of Homo sapiens with 11 samples.

Results

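The ERK feedback genes DUSP1, DUSP2, DUSP4, DUSP5, DUSP6, SPRY1, SPRY2, SPRY4, SPRED1 and SPRED2 were followed across 11 RNA sequencing libraries of a pair of human acute myeloid leukaemia lines. The 10 genes were found by symbol among the 58037 gene rows of the count table, and all 10 were among the 18908 genes with enough counts to be tested. Each line was measured as controls (n = 3 per line) and after 16 h with 100 nM FHD-286 (n = 3 for OCI-AML3 and n = 2 for OCI-AML3-FLT3-ITD). OCI-AML3 is an established line that carries the NPM1 mutation common in this leukaemia. OCI-AML3-FLT3-ITD is named for the FLT3 internal tandem duplication, a mutant of this receptor tyrosine kinase that signals without ligand. The labels do not say how the duplication was brought in, whether the line is 1 clone, whether controls received a vehicle, or whether replicates were separate cultures, so p-values measure the spread between these libraries, which may be technical. FHD-286 inhibits the ATPases BRG1 and BRM, which drive the BAF chromatin remodelling complexes.

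Signals from receptor tyrosine kinases pass through RAS, RAF and MEK to the kinase ERK, and ERK activity switches on transcripts that damp the same route. The DUSP genes here encode dual-specificity phosphatases that remove the activating phosphates from MAP kinases, some in the nucleus and some in the cytoplasm. Sprouty proteins (SPRY) act between the receptor and RAF, and SPRED proteins bring the RAS inactivator neurofibromin to the membrane. Because these transcripts often follow ERK activity, they are widely read as an output of the pathway, although a transcript level does not measure ERK itself. In GENCODE 29 on GRCh38, the phosphatase genes lie at chr5:172768090-172771195 (DUSP1), chr2:96143166-96145440 (DUSP2), chr8:29333064-29350668 (DUSP4), chr10:110497838-110511544 (DUSP5) and chr12:89347232-89353271 (DUSP6). The Sprouty genes lie at chr4:123396795-123403760 (SPRY1), chr13:80335976-80340951 (SPRY2) and chr5:142310427-142326455 (SPRY4), and the SPRED genes at chr15:38252326-38357249 (SPRED1) and chr2:65310851-65432637 (SPRED2).

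One library did not resemble its group. FLT3 stood at 178 and 203 CPM (counts normalised to library size with TMM factors) in control replicates 1 and 3 of OCI-AML3-FLT3-ITD and at 171 and 169 CPM after FHD-286 in that line. The third control, the library labelled as control replicate 2 of OCI-AML3-FLT3-ITD, had 53.4 CPM. The 6 OCI-AML3 libraries had 39.2 to 43.3 CPM. Over all genes tested, the log2 CPM of that library correlated at 0.957 to 0.960 with the other controls of its line and at 0.979 to 0.984 with the OCI-AML3 controls, while the other pair correlated at 0.993, and mitochondrial transcripts took 8.85% of its counts against 4.48% to 7.54% elsewhere. It remained in the group its label gives, and results are stated with and without it. Its ratio to the mean of the other controls of its line was 5.34 for SPRY1, 2.00 for SPRY4, 1.77 for DUSP4, 1.71 for SPRY2, 1.47 for DUSP6, 1.33 for SPRED1 and 0.702 for SPRED2, whereas DUSP1, DUSP2 and DUSP5 lay between 0.911 and 0.970. Against the mean of the OCI-AML3 controls its ratio was 2.35 for DUSP6, 2.3 for DUSP1, 1.63 for SPRY1 and 1.41 for SPRY2. SPRED2, DUSP4 and SPRED1 lay at 1.21, 1.16 and 1.11, and DUSP5, SPRY4 and DUSP2 at 0.801, 0.74 and 0.476. Total counts ran from 58397190 to 79172389 per library, at which 3 counts correspond to 0.0366 to 0.0548 CPM.

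**Figure D1:**
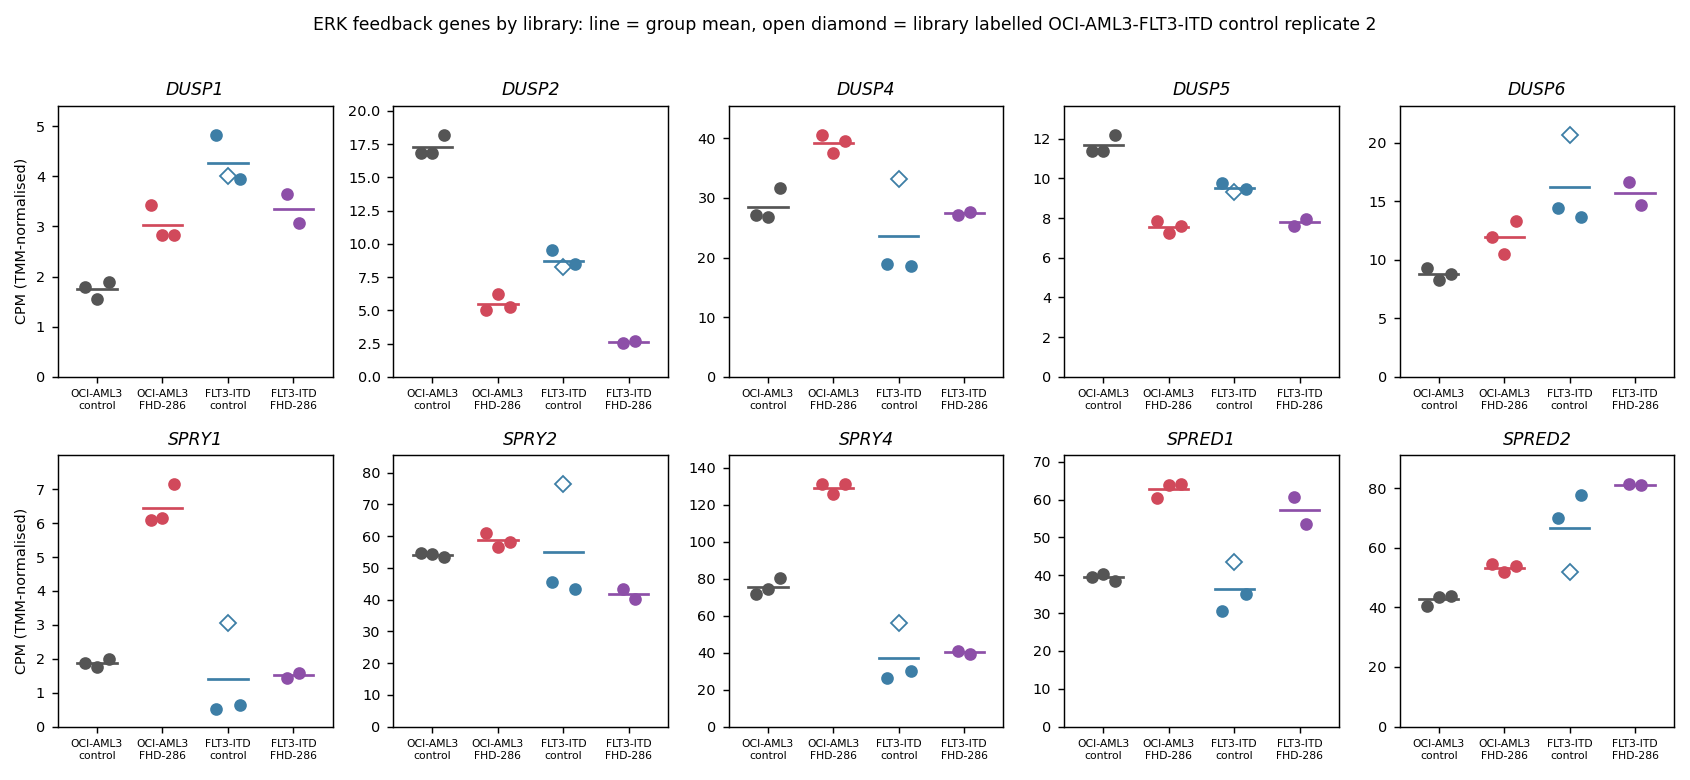
Levels of the 10 ERK feedback genes in each library, in TMM-normalised CPM on linear axes from 0, with a horizontal line at each group's mean. The open diamond is the library labelled as control replicate 2 of OCI-AML3-FLT3-ITD, which stands above the other controls of its line for SPRY1, SPRY4, DUSP4, SPRY2, DUSP6 and SPRED1 and below them for SPRED2.

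Compared per kilobase of merged exon, the order of the 10 transcripts differed between groups, with SPRY2 in the first or second place in each and SPRY1 in the last or next to last. In OCI-AML3 controls SPRY2 was highest at 17.8 ± 0.253 CPM per kilobase (SD, n = 3), followed by SPRY4 at 11.5 ± 0.67, DUSP2 at 8.94 ± 0.426 and SPRED2 at 8.28 ± 0.371, the last pair less than their summed SDs apart. SPRY1 was lowest at 0.473 ± 0.0265 CPM per kilobase, 37.6 times below SPRY2. After FHD-286 the order in OCI-AML3 began with SPRY4 at 19.7 ± 0.396 and SPRY2 at 19.3 ± 0.731, which did not differ beyond their spread, and DUSP2 stood in place 7 at 2.85 ± 0.342, level with DUSP5 at 2.89 ± 0.108. In the treated FLT3-ITD line SPRED2 led at 15.7 ± 0.0288 (SD, n = 2), ahead of SPRY2 at 13.8 ± 0.702, and SPRY1 was again lowest at 0.38 ± 0.0282. The OCI-AML3-FLT3-ITD controls had SPRY2 at 18.2 ± 6.04 (SD, n = 3) and SPRED2 at 12.9 ± 2.58, and without the library that stands apart these were 14.7 ± 0.499 and 14.3 ± 1.09 (SD, n = 2), which did not differ beyond their spread.

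FHD-286 moved most of the set in OCI-AML3, and it did so in both directions. SPRY1, DUSP1, SPRY4, SPRED1 and DUSP6 rose, DUSP2 and DUSP5 fell, and DUSP4, SPRED2 and SPRY2 did not pass the test (adjusted p of 0.0774, 0.0563 and 0.628), so 5 rose and 2 fell of 10 (7 called), against 19.8% higher, 21.5% lower and 41.3% called of all genes tested. In the FLT3-ITD line only SPRED1 rose and only DUSP2 fell among the 10 with all libraries in the fit, against 15.6% higher, 14.9% lower and 30.5% called of all genes. Without the library that stands apart, 7 rose and 2 fell in OCI-AML3 (all genes 29.0% higher, 29.8% lower and 58.8% called), and SPRY1, SPRY4, SPRED1 and DUSP4 rose while DUSP1, DUSP2 and DUSP5 fell in the FLT3-ITD line (all genes 24.8% higher, 24.2% lower and 49.0% called). Treated and control ranges of CPM did not overlap for 10 of 10 in OCI-AML3 (66.0% of all genes), and for 6 of 10 in the FLT3-ITD line (49.0% of all genes) or 10 of 10 without that library (69.7%). The median log2 change of the 10 genes was 0.45 in OCI-AML3 and 0.03 in the FLT3-ITD line (0.15 without that library), beside 0.02 and -0.02 (0.02) over all genes. Calls rest on the quasi-likelihood test of edgeR, with p-values adjusted by Benjamini-Hochberg over all genes tested and a threshold of 0.05. Leaving out that library lowered the common biological coefficient of variation from 0.193 to 0.0652, and since all groups share 1 estimate of the spread, it also changed calls in OCI-AML3, where its own counts do not enter.

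Most myeloid identity markers fell with FHD-286 in both lines. The summed level of 9 myeloid markers was 2330 to 2600 CPM in OCI-AML3 controls and 1350 to 1360 CPM after FHD-286, and 1550 to 1730 and 728 to 769 CPM in the FLT3-ITD line. Of the 9, 1 rose (PTPRC, 0.46 ± 0.10) and 7 fell in OCI-AML3, against 19.8% higher and 21.5% lower of all genes. In the FLT3-ITD line 0 rose and 8 fell, against 15.6% and 14.9%. The median log2 changes of the 9 were -0.92 and -1.71. ELANE, at a mean of 1230 CPM, made up a large part of the summed level in OCI-AML3 controls. Between control lines 2 of the 9 were higher and 2 lower in the FLT3-ITD line (median -0.14), against 14.5% and 13.5% of all genes. Without the library that stands apart these were 2 and 4, against 24.1% and 25.4%. Between treated lines 0 were higher and 6 lower (median -0.91), against 14.3% and 11.7%. The markers of granulocytic and mature myeloid cells stood at unlike levels. MPO and ITGAM stayed at or under 2.62 and 1.51 CPM. Over all libraries ELANE ran from 214 to 1350 CPM, CSF3R from 32.3 to 118 CPM and LYZ from 9.1 to 200 CPM. Lymphoid markers summed to at most 1.52 CPM in any library and epithelial and stromal markers to at most 0.718 CPM, with CD3E and CDH1 at 0 in all libraries. The part of myeloid state in the changes described here was not tested, and in bulk RNA fewer cells of a type cannot be told apart from less RNA per cell.

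**Figure D2:**
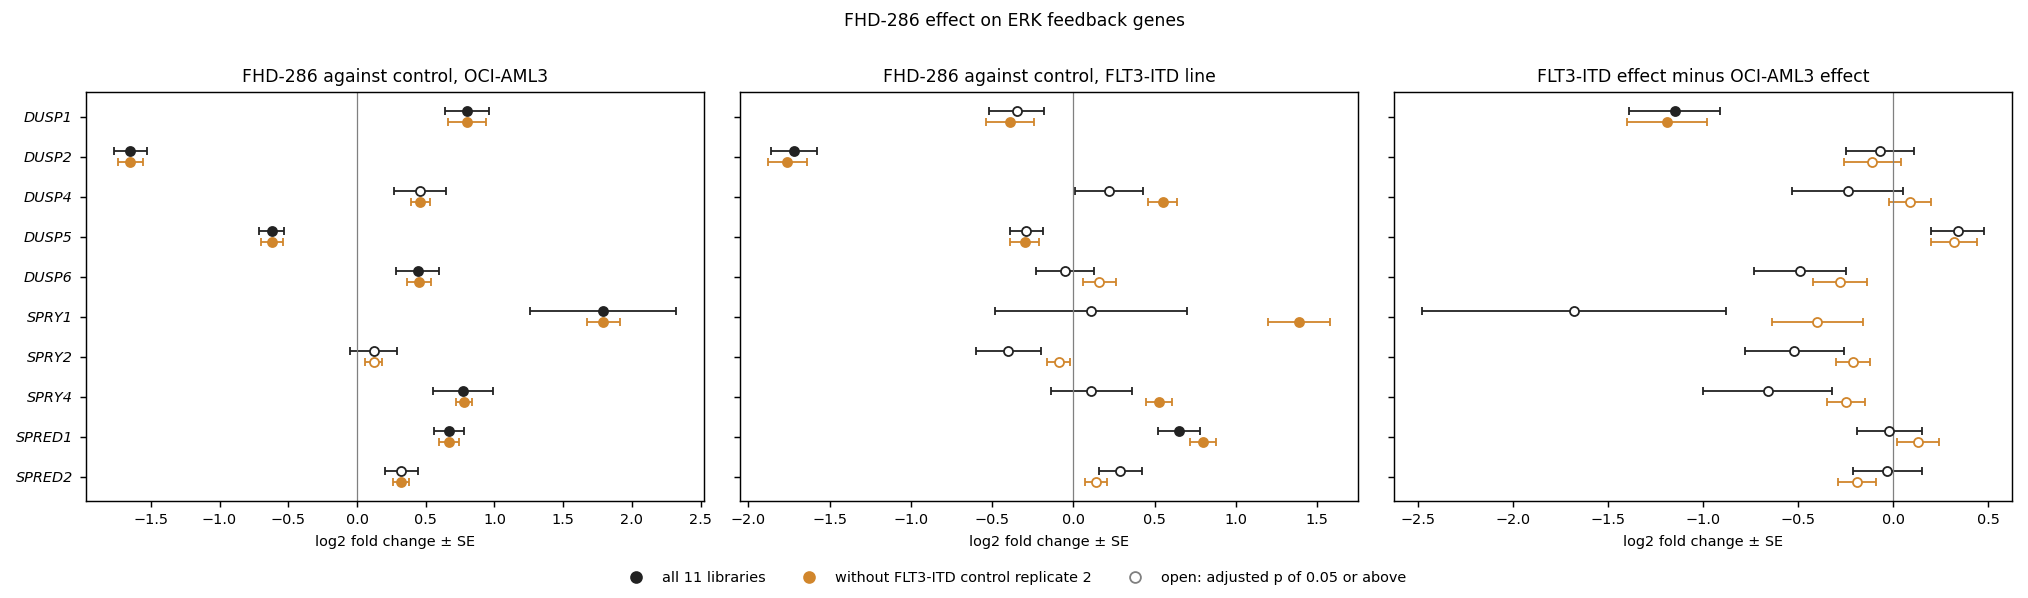
Log2 fold change ± SE of FHD-286 against control in OCI-AML3 (left), in OCI-AML3-FLT3-ITD (middle) and the difference between these effects (right), with all 11 libraries in black and without the library labelled as control replicate 2 of OCI-AML3-FLT3-ITD in orange. Filled points passed an adjusted p of 0.05, and DUSP2 is filled at the far left in both lines while DUSP1 is the one filled gene in the right panel.

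DUSP2 encodes an inducible nuclear phosphatase found mainly in blood cells, and it fell in both lines. OCI-AML3 controls had 16.8, 16.8 and 18.2 CPM, and treated OCI-AML3 5.01, 6.25 and 5.24 CPM. In the FLT3-ITD line it was 9.51, 8.23 and 8.45 CPM in controls and 2.55 and 2.73 CPM after FHD-286. No pair of groups overlapped, and each treated group lay below both control groups. The log2 change was -1.65 ± 0.12 in OCI-AML3 (a 3.14-fold fall, adjusted p = 3.02e-06) and -1.72 ± 0.14 in the FLT3-ITD line (a 3.30-fold fall, adjusted p = 1.26e-05). The difference between these effects was -0.07 ± 0.18 (adjusted p = 0.865). DUSP2 was also lower in the FLT3-ITD line than in OCI-AML3, by a log2 difference of -0.98 ± 0.12 in controls and -1.06 ± 0.14 with FHD-286 (adjusted p of 0.000536 and 0.000539). Without the library that stands apart these 4 comparisons of groups gave -1.65, -1.76, -0.94 and -1.06, all called.

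DUSP1, an immediate-early phosphatase of the nucleus that also acts on the stress kinases JNK and p38, was the one gene of the 10 whose response differed between the lines by a test. It stood at 1.79, 1.55 and 1.89 CPM in OCI-AML3 controls and 3.43, 2.83 and 2.84 CPM with FHD-286. The FLT3-ITD line had 4.83, 4.0 and 3.95 CPM in controls and 3.64 and 3.06 CPM with FHD-286. The treated groups of both lines overlapped, while the controls of the FLT3-ITD line lay above all OCI-AML3 libraries. DUSP1 rose in OCI-AML3 by a log2 change of 0.80 ± 0.16 (1.74-fold, adjusted p = 0.0023), and its value in the FLT3-ITD line was -0.35 ± 0.17 (adjusted p = 0.161; -0.39 and 0.0416 without the library that stands apart). The difference of the effects was -1.15 ± 0.24 (adjusted p = 0.029; -1.19 and 0.000358 without that library), but the call was lost when any 1 of the 6 OCI-AML3 libraries or of the 2 treated FLT3-ITD libraries was left out (adjusted p of 0.0594 to 0.136), leaving it in 3 of 11 such fits. Control cells of the FLT3-ITD line had 2.45 times the DUSP1 level of OCI-AML3 controls (log2 1.29 ± 0.16, adjusted p = 0.000671), and treated cells 1.10 times (log2 0.14 ± 0.17, adjusted p = 0.592). These levels rest on 98 to 341 counts per library.

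The bases just before the annotated starts of DUSP2, DUSP1 and SPRY1 are shown because these were the genes with the strongest fall, the difference between lines and the strongest rise in OCI-AML3. They are RefSeq sequence of GRCh38.p14, 5′ to 3′ on the gene's strand, ending at the base before the start, and capitals mark matches to the motifs named next, on either strand. DUSP2 is given for chr2:96145441-96145601 (minus strand), DUSP1 for chr5:172771196-172771445 (minus strand) and SPRY1 for chr4:123396545-123396794 (plus strand).
DUSP2: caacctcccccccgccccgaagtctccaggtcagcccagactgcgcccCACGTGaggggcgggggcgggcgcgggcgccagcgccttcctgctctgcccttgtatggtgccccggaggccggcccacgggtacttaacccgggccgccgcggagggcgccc
DUSP1: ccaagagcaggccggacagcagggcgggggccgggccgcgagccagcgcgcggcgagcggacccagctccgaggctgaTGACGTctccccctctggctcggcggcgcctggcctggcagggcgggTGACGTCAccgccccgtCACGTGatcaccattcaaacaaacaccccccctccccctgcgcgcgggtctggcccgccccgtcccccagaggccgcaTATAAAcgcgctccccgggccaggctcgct
SPRY1: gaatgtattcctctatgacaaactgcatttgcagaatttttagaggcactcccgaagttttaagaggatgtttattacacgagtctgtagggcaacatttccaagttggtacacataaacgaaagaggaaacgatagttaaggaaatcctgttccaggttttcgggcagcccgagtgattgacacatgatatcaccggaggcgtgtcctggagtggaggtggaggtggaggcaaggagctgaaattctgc
The motifs searched were the CRE core TGACGT, the AP-1 site TGANTCA, the ETS site CCGGAA, the E-box CACGTG and the TATA box TATAAA. DUSP1 held 3 CRE core matches, a pair of which overlap on opposite strands to form the full TGACGTCA, together with 1 E-box and 1 TATA box between 30 and 25 bases before the start. DUSP2 held 1 E-box, and the SPRY1 stretch held none of the 5. Among 35116 windows of 250 bases before RefSeq starts, 7.1% held TGACGT, 1.65% the full TGACGTCA, 6.34% the E-box, 10.7% the TATA box, 6.57% TGANTCA and 14.5% CCGGAA, and 1.95% held 2 or more CRE core matches. Of the 12 windows for 8 of the genes, AP-1 letters were in none, and ETS letters were in 1 window each of SPRY1 and SPRY2. DUSP4 and DUSP5 had no entry. GC content was 74.4% in the DUSP1 window, 74.0% in the 250 bases before DUSP2 and 45.6% in the SPRY1 window shown (68.0% in its other window, chr4:123398136-123398385, which holds the ETS letters), beside a median of 58%. Such matches describe letters and were not measured as bound.

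DUSP5 and DUSP4 are the remaining nuclear phosphatases of the set. DUSP5, which anchors and inactivates ERK in the nucleus, was at 11.4, 11.4 and 12.2 CPM in OCI-AML3 controls and fell to 7.83, 7.26 and 7.59 CPM with FHD-286 (log2 -0.62 ± 0.09, adjusted p = 0.000333). In the FLT3-ITD line it was at 9.76, 9.34 and 9.49 CPM in controls and 7.62 and 7.97 CPM with FHD-286 (log2 -0.29 ± 0.10, adjusted p = 0.0551; -0.30 and 0.0111 without the library that stands apart). That difference was called in 4 of 9 other alternatives, those with DESeq2 size factors or its Wald test, upper quartile factors or a stricter filter. Treated libraries of both lines overlapped, and each lay below every control library. The controls of the FLT3-ITD line were below those of OCI-AML3 (log2 -0.29 ± 0.09, adjusted p = 0.0373), a call that held in 2 of the 11 fits leaving out 1 library, those without control replicates 1 or 2 of the FLT3-ITD line, with adjusted p up to 0.125. It was also lost with library totals (-0.20, adjusted p = 0.123), upper quartile factors, no filter, only the groups compared or a replicate block (-0.29, adjusted p = 0.069). DUSP4, an inducible nuclear phosphatase of ERK and JNK, ran from 26.8 to 31.6 CPM in OCI-AML3 controls and from 37.5 to 40.6 CPM with FHD-286, without overlap (log2 0.46 ± 0.19, adjusted p = 0.0774; called with library totals, no filter or only the groups compared, at 0.47 to 0.62). Its FLT3-ITD controls were at 19.0, 33.2 and 18.6 CPM, the second being the library that stands apart, and treated cells at 27.2 and 27.7 CPM. With all libraries its drug value in the FLT3-ITD line was 0.22 ± 0.21 (adjusted p = 0.475). The FLT3-ITD line then differed from OCI-AML3 by -0.27 ± 0.19 in controls and -0.52 ± 0.21 with FHD-286 (adjusted p of 0.307 and 0.105, not called). Without the library that stands apart DUSP4 rose in both lines (log2 0.46 ± 0.07 and 0.55 ± 0.09, adjusted p of 6.83e-06 and 1.96e-05). In that fit it was called lower in the FLT3-ITD line in controls and with FHD-286 (log2 -0.60 and -0.51).

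DUSP6, a cytoplasmic phosphatase with a strong preference for ERK, was higher in the FLT3-ITD controls than in the OCI-AML3 controls. Its levels were 9.28, 8.30 and 8.76 CPM in OCI-AML3 controls and 12.0, 10.5 and 13.3 CPM with FHD-286, against 14.4, 20.7 and 13.7 CPM in FLT3-ITD controls and 16.7 and 14.7 CPM with FHD-286. Every FLT3-ITD library thus exceeded every OCI-AML3 library, and drug and control overlapped in the FLT3-ITD line with all libraries included. The control lines differed by a log2 value of 0.89 ± 0.16 (1.85-fold, adjusted p = 0.00361; 0.68 without the library that stands apart, also called). In OCI-AML3 the rise with FHD-286 was 0.44 ± 0.16 (adjusted p = 0.047), called in 4 of the 11 fits leaving out 1 library, namely those without treated OCI-AML3 replicate 2 or any 1 FLT3-ITD control, with adjusted p up to 0.145, and at 0.45 and 0.000224 without the library that stands apart. A replicate block also lost it (0.45, adjusted p = 0.0788). In the FLT3-ITD line the value was -0.05 ± 0.18 (adjusted p = 0.867), or 0.16 and 0.209 without that library. An antisense gene covers 40.48% of the exon length of DUSP6, and since the strand setting of the counting was not given in the sources used here, reads of the pair cannot be told apart. The other 9 genes share no exon bases with another annotated gene.

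SPRY1, a Sprouty protein induced by growth factors, showed the largest rise of the set in OCI-AML3 from one of its lowest levels. Controls had 1.88, 1.77 and 1.98 CPM and treated cells 6.08, 6.16 and 7.14 CPM, with no overlap (log2 1.79 ± 0.53, 3.45-fold, adjusted p = 0.02). The adjusted p was 0.0551 to 0.0647 when treated replicate 3 or any 1 OCI-AML3 control was left out, with log2 values of 1.74 to 1.82. The FLT3-ITD line had 0.51 and 0.637 CPM in control replicates 1 and 3, 3.06 CPM in the library labelled control replicate 2, and 1.43 and 1.59 CPM with FHD-286. With all 3 controls the drug value was 0.11 ± 0.59 (adjusted p = 0.91). Without the library that stands apart it was a called rise of 1.39 ± 0.19 (2.61-fold, adjusted p = 4.8e-06), resting on 36 and 51 control counts. The same library set the contrast of the controls, at -0.42 ± 0.53 (adjusted p = 0.581) with it and -1.70 ± 0.18 (adjusted p = 1.1e-07) without it. With FHD-286, where it has no part in the levels, SPRY1 was 4.28-fold lower in the FLT3-ITD line (log2 -2.10 ± 0.62, adjusted p = 0.0311), a call lost when any 1 of the 5 treated libraries was left out (adjusted p of 0.0657 to 0.177). The difference of the drug effects was -1.68 ± 0.80 (adjusted p = 0.3), or -0.40 ± 0.24 (adjusted p = 0.289) without that library.

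SPRY4, a Sprouty protein that restrains signalling to RAS and RAF, was also highest in treated OCI-AML3. It was at 71.7, 74.6 and 80.4 CPM in OCI-AML3 controls, 131, 126 and 131 CPM in treated OCI-AML3, 26.0, 55.9 and 29.9 CPM in FLT3-ITD controls, the second again the library that stands apart, and 41.1 and 39.5 CPM once that line was treated. All FLT3-ITD libraries lay below all OCI-AML3 libraries. The rise with FHD-286 in OCI-AML3 was 0.77 ± 0.22 (1.71-fold, adjusted p = 0.0174; 0.0607 and 0.0525 without OCI-AML3 control replicates 1 and 2), and the value in the FLT3-ITD line was 0.11 ± 0.25 (adjusted p = 0.771), or a called 0.53 ± 0.08 (adjusted p = 1.25e-05) without that library. The FLT3-ITD line was lower by a log2 difference of -1.02 ± 0.23 in controls and -1.68 ± 0.26 with FHD-286 (adjusted p of 0.00866 and 0.00159), or -1.43 and -1.68 without that library, and the call in controls was lost when only those groups were fitted (-0.97, adjusted p = 0.0689). SPRY2, the Sprouty protein best known for blocking receptor signals, was not called with FHD-286 in either line with all libraries or without the one that stands apart, but was called in OCI-AML3 when only the groups compared were fitted (0.13, adjusted p = 0.021). It ran from 53.3 to 54.8 CPM in OCI-AML3 controls and from 56.7 to 61.1 CPM with FHD-286 (log2 0.12 ± 0.17, adjusted p = 0.628), and from 43.5 to 76.3 CPM in FLT3-ITD controls against 43.3 and 40.3 CPM with FHD-286 (log2 -0.40 ± 0.20, adjusted p = 0.151). Without that library these values were 0.12 and -0.09 (adjusted p of 0.0923 and 0.3). In the same fit the FLT3-ITD line was lower in controls (-0.28 ± 0.07, adjusted p = 0.00129) and with FHD-286 (-0.49 ± 0.07, adjusted p = 2.62e-06). With all libraries these line differences were 0.03 ± 0.17 and -0.49 ± 0.20 (adjusted p of 0.925 and 0.094, not called).

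SPRED1, which carries neurofibromin to the membrane and is a tumour suppressor in the RAS pathway, rose in both lines. Its levels were 39.6, 40.3 and 38.4 CPM in OCI-AML3 controls against 60.3, 63.8 and 64.0 CPM with FHD-286, and 30.5, 43.6 and 35.1 CPM in FLT3-ITD controls against 60.8 and 53.5 CPM with FHD-286. Drug and control did not overlap in either line, and the treated groups of both lines did. The log2 changes were 0.67 ± 0.11 (1.59-fold, adjusted p = 0.000864) and 0.65 ± 0.13 (1.57-fold, adjusted p = 0.00306), and 0.67 and 0.80 without the library that stands apart. The call in the FLT3-ITD line was lost when only its own groups were fitted (0.63, adjusted p = 0.0922). SPRED2, its close relative, instead differed between the lines. OCI-AML3 controls had 40.5, 43.6 and 43.9 CPM and treated cells 54.4, 51.8 and 53.7 CPM, while the FLT3-ITD line had 69.8, 51.8 and 77.8 CPM in controls and 81.2 and 81.0 CPM with FHD-286. The FLT3-ITD line was higher by a log2 difference of 0.64 ± 0.12 in controls and 0.61 ± 0.13 with FHD-286 (adjusted p of 0.00445 and 0.00859; 0.0664 and 0.0568 for the latter without treated FLT3-ITD replicates 1 and 2), or 0.79 and 0.61 without that library. The drug values of SPRED2 were 0.32 ± 0.12 and 0.29 ± 0.13 (adjusted p of 0.0563 and 0.134), and without that library 0.32 (adjusted p = 0.000119) in OCI-AML3 and 0.14 (adjusted p = 0.135) in the FLT3-ITD line. In OCI-AML3 the difference was called in 6 of 9 other alternatives, at 0.32 to 0.48 (upper quartile factors, library totals, either other filter, the DESeq2 Wald test and only the groups compared), and in the FLT3-ITD line in 1, library totals (0.39).

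**Figure D3:**
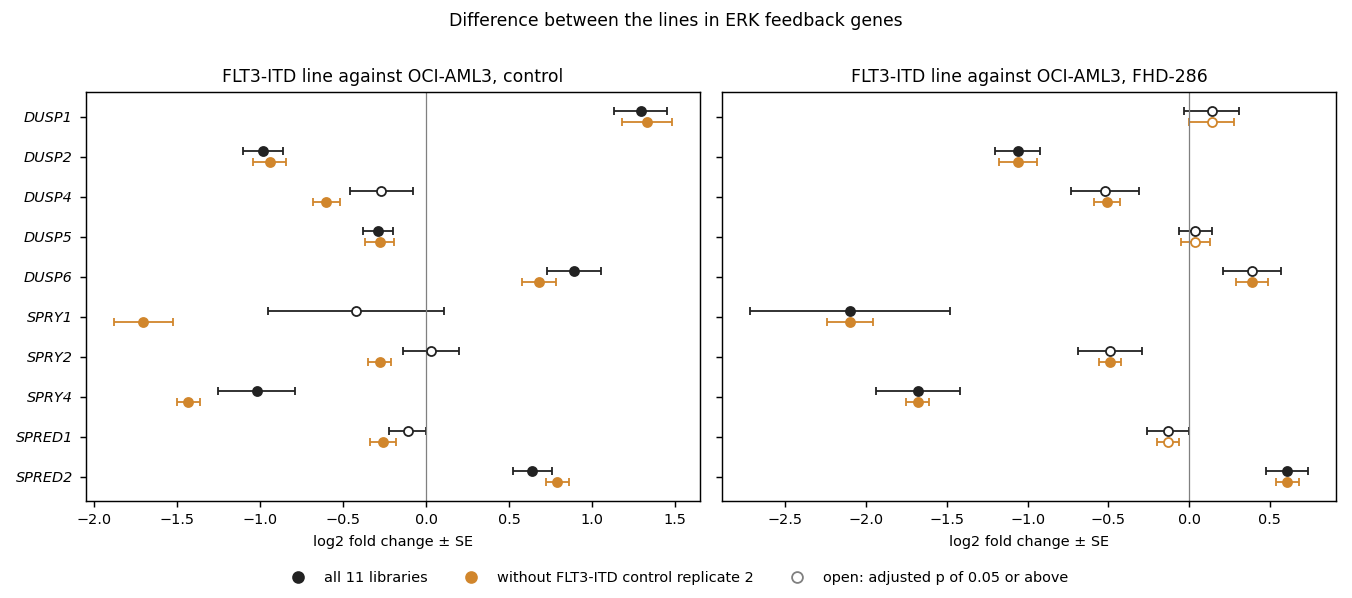
Log2 fold change ± SE of the FLT3-ITD line against OCI-AML3 in controls (left) and with FHD-286 (right), with all 11 libraries in black and without the library labelled as control replicate 2 of OCI-AML3-FLT3-ITD in orange, and filled points for an adjusted p under 0.05. DUSP2 and SPRY4 lie left of 0 and SPRED2 right of 0 in both panels, and SPRY1 in controls moves from -0.42 to -1.70 when that library is left out.

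Between the lines, the set also split by gene. In controls DUSP1, DUSP6 and SPRED2 were higher and DUSP2, DUSP5 and SPRY4 lower in the FLT3-ITD line, so 6 of 10 were called (3 higher and 3 lower), against 14.5% higher, 13.5% lower and 28.0% called of all genes tested. With FHD-286 in both lines, SPRED2 was higher and DUSP2, SPRY1 and SPRY4 lower, or 4 of 10, against 14.3% higher, 11.7% lower and 26.0% called of all genes. Without the library that stands apart, the counts were 3 higher and 7 lower in controls (all genes 24.1%, 25.4% and 49.4%) and 2 higher and 5 lower with FHD-286 (24.2%, 22.8% and 46.9%). The lines' CPM ranges did not overlap for 6 of 10 in controls (36.9% of all genes; 10 of 10 and 61.3% without that library) and for 7 of 10 with FHD-286 (66.2%). The median log2 difference was -0.19 in controls (-0.28 without that library) and -0.31 with FHD-286, beside 0.01 (-0.02) and 0.00 over all genes. For the difference of the drug effects, 1 of 10 was called, DUSP1, which was lower, against 1.98% higher, 1.38% lower and 3.36% called of all genes, and again 1 against 9.63%, 7.39% and 17.0% without that library. The comparisons within and between lines share control groups and are not independent of each other.

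**Figure D4:**
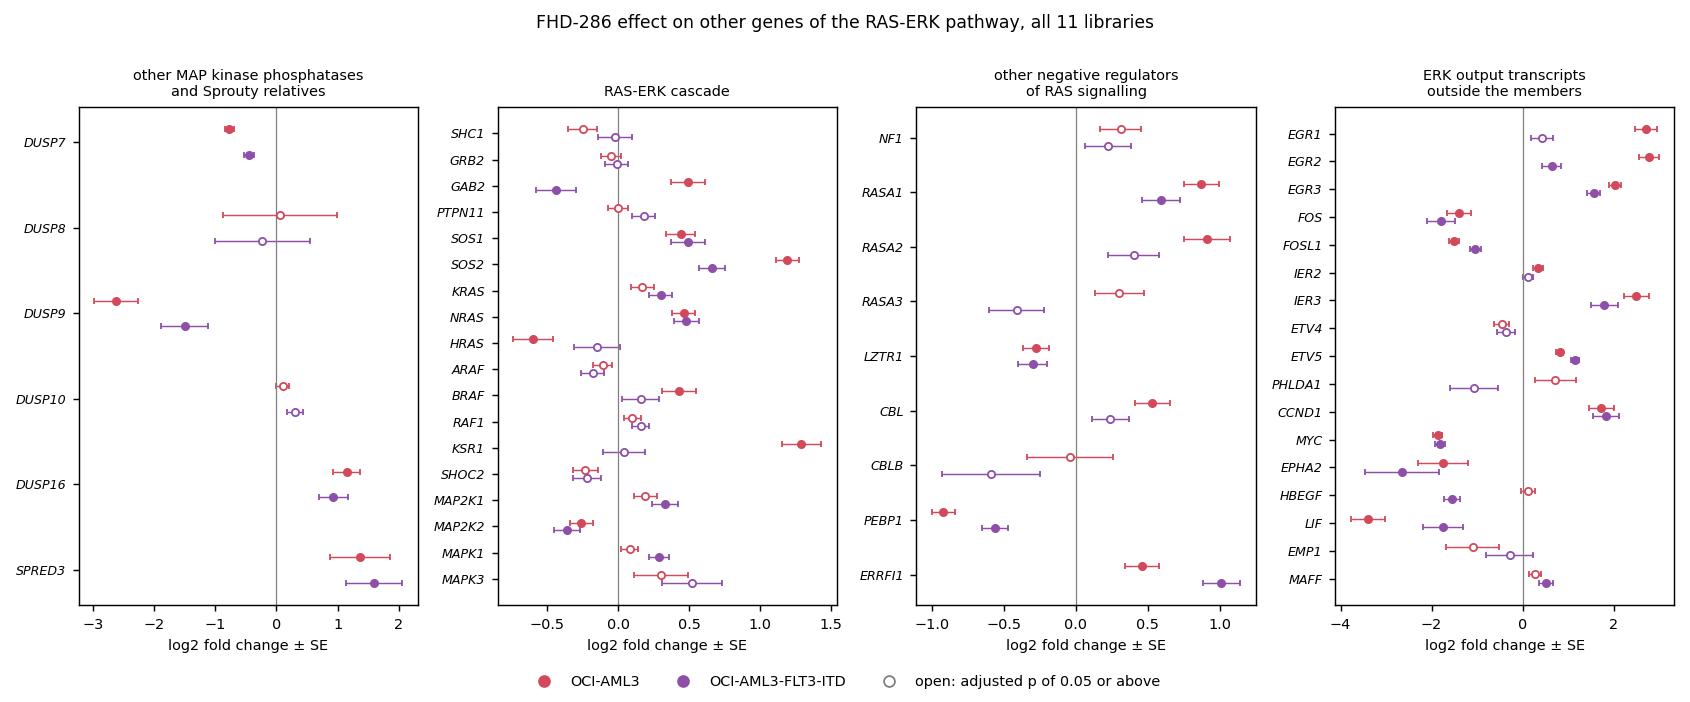
Log2 fold change ± SE of FHD-286 against control for 6 other MAP kinase phosphatases and Sprouty relatives, 18 genes of the RAS-ERK cascade, 9 other negative regulators of RAS signalling and 17 ERK output transcripts, in OCI-AML3 (red) and OCI-AML3-FLT3-ITD (purple), with all 11 libraries and filled points for an adjusted p under 0.05. EGR1 and EGR2 lie at 2.71 and 2.78 in OCI-AML3 and at 0.43 and 0.64 in the FLT3-ITD line, and MYC lies at -1.87 and -1.82.

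Relatives of the set and the cascade that feeds it were set beside it. The shares called over all genes, given above, were 41.3% and 30.5% for FHD-286 in OCI-AML3 and the FLT3-ITD line and 28.0% and 26.0% between lines in controls and with FHD-286. With the library that stands apart left out they were 58.8%, 49.0%, 49.4% and 46.9%, and the counts of the lists stand against these. Among 6 tested relatives, FHD-286 gave 2 higher and 2 lower in each line (2 and 3 in the FLT3-ITD line without that library): DUSP7, a cytoplasmic ERK phosphatase, fell (-0.77 ± 0.07 and -0.45 ± 0.08), as did DUSP9 (-2.62 ± 0.36 and -1.50 ± 0.38), while DUSP16, a JNK and p38 phosphatase, rose (1.15 ± 0.22 and 0.93 ± 0.24), and SPRED3 rose from under 1 CPM (1.37 ± 0.49 and 1.60 ± 0.46). DUSP9 was low, with means of 2.64 CPM in OCI-AML3 controls and 0.429 CPM in treated OCI-AML3. The seventh relative, SPRY3, had at most 4 counts in a library and was not tested. Against OCI-AML3, the FLT3-ITD line had 4 of these relatives higher and 1 lower in controls (median 0.95; 5 and 1 without the library that stands apart) and 5 higher and 0 lower with FHD-286 (median 1.25), among them DUSP10, a phosphatase of JNK and p38 (0.55 ± 0.11 and 0.74 ± 0.12).

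Of 18 cascade genes, 6 rose and 2 fell in each line (medians 0.14 and 0.16), beside 19.8% higher and 21.5% lower of all genes in OCI-AML3 and 15.6% and 14.9% in the FLT3-ITD line. The RAS activator SOS2 rose by 1.19 ± 0.08 in OCI-AML3 and 0.66 ± 0.09 in the FLT3-ITD line, and NRAS by 0.46 ± 0.08 and 0.48 ± 0.09. The scaffold KSR1, which holds RAF, MEK and ERK together, rose in OCI-AML3 (1.29 ± 0.14), and its value in the FLT3-ITD line was 0.04 (not called). GAB2, an adaptor below receptor tyrosine kinases, rose in OCI-AML3 (0.49 ± 0.12) and fell in the FLT3-ITD line (-0.44 ± 0.14, or -0.26 without that library). HRAS fell in OCI-AML3 (-0.60 ± 0.14), and its value in the FLT3-ITD line was -0.15 (adjusted p = 0.511; a called -0.31 without that library). MAP2K2, which encodes a MEK kinase, fell in both lines (-0.26 ± 0.08 and -0.36 ± 0.09). The difference between lines was called for KSR1, GAB2 and SOS2, in each case lower in the FLT3-ITD line (-1.25, -0.92 and -0.53). Without the library that stands apart, 9 rose and 4 fell in OCI-AML3 and 9 rose and 3 fell in the FLT3-ITD line.

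Of 9 tested negative regulators outside the set, 4 rose and 2 fell in OCI-AML3 (41.3% of all genes called) and 2 rose and 2 fell in the FLT3-ITD line (30.5%), with medians of 0.31 and 0.22. These were 6 and 2, and 5 and 3, without the library that stands apart (58.8% and 49.0%). PEBP1, an inhibitor of RAF, fell in both (-0.92 ± 0.08 and -0.56 ± 0.09), RASA1, a RAS GTPase activator, rose in both (0.87 ± 0.12 and 0.59 ± 0.13), and ERRFI1, a feedback inhibitor of the EGF receptor family, rose in both as well (0.46 ± 0.12 and 1.01 ± 0.13). The tenth, IL17RD, reached at most 18 counts and was not tested. Of 17 ERK output transcripts outside the set, 7 rose and 5 fell in OCI-AML3 (41.3% of all genes called) and 6 rose and 6 fell in the FLT3-ITD line (30.5%), with medians of 0.28 and -0.28. Without that library these were 9 and 6, and 6 and 5 (58.8% and 49.0%), with medians of 0.28 and -0.01. EGR3 rose in both lines (2.03 ± 0.14 and 1.56 ± 0.14) and MYC fell in both (-1.87 ± 0.10 and -1.82 ± 0.11). The others that fell in OCI-AML3 were FOSL1 (-1.51 ± 0.11), FOS (-1.40 ± 0.27), LIF (-3.40 ± 0.38) and EPHA2 (-1.75 ± 0.56). LIF and EPHA2 were low, with means of 1.3 and 0.55 CPM in OCI-AML3 controls, as were EGR3 and EGR2 at 1.45 and 0.463 CPM. EGR1 and EGR2, immediate-early transcription factors, rose in OCI-AML3 by 2.71 ± 0.24 and 2.78 ± 0.22, against 0.43 (not called) and 0.64 ± 0.21 (adjusted p = 0.0422) in the FLT3-ITD line, and their differences between lines were called. Among the 17, the difference of the drug effects was called for 0 higher and 3 lower with all libraries (3.36% of all genes called) and for 4 higher and 7 lower without the library that stands apart (17.0%). In FLT3-ITD controls against OCI-AML3, 6 output transcripts were higher and 5 lower (28.0% of all genes called), or 6 and 8 without that library (49.4%). With FHD-286 the counts were 4 higher and 3 lower (26.0%), or 4 and 9 without it (46.9%).

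For each gene of the set, the genes whose log2 CPM followed it most closely over the 11 libraries were listed among those averaging a log2 CPM of 2 or more. The libraries fall into 4 groups and share depth and preparation, so these Pearson correlations only describe likeness. SPRED1 was followed by APPBP2 and INTS6 and SPRY1 by DNAJC18 and TRIB2, at 0.994 to 0.995. DUSP2 was followed by RASL10B and CLPB, both at 0.993, SPRY4 by MYCL and PITPNC1 and SPRED2 by NR4A2 and TCAF1, at 0.991 to 0.992. DUSP5 was followed by DNAAF5 and ZBTB12, both at 0.991, and DUSP4 by DHRS1 and ZFP36 at 0.991 and 0.985. The looser fits were DUSP1 with BTG1 and TSC22D3 at 0.968 and 0.953, DUSP6 with TMEM161B-DT and LETMD1 at 0.977 and 0.969, and SPRY2 with MTND5P11 and TAF7 at 0.980 and 0.970. MTND5P11 is a pseudogene copy of a mitochondrial gene, so its counts are uncertain. Without the library that stands apart these correlations were 0.949 to 0.996.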

How the data were processed

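Total RNA of 11 libraries was sequenced as paired ends. The authors deposited raw counts per gene. The submitters' processing notes name STAR and the build hg38, while the sources used here do not give the program that counted, its strand setting or its annotation. Symbols came from a separate list of gene names, which covered 56948 of 58037 rows. Coordinates and exons came from GENCODE 29 (GRCh38), which held 57433 of the 58037 identifiers. Genes passing edgeR's filterByExpr (minimum count 10, minimum total 15; 18908 genes) were scaled by TMM. The model was quasi-likelihood in edgeR 4.0.16 (R 4.3.3), 1 mean per group, 7 residual degrees of freedom, two-sided, Benjamini-Hochberg over all genes tested, threshold 0.05. SE is the log2 fold change over the square root of F, an approximation. Levels are CPM from the same factors, per kilobase of merged exon where genes are compared. The fit was tested on simulated data. The set, the other gene lists and the tests were chosen with earlier results of these data known. Genes that could be named were the 10, the 3 smallest p and 1 minority-direction call per other list and comparison, FLT3, and 2 genes of like pattern each. Not every gene this rule picked was named, RASA2 in OCI-AML3 being left out. Marker genes were also named for their levels. SPRED3, and KSR1, GAB2, EGR1, EGR2 and HBEGF in comparisons where the rule did not pick them, were added after their values were seen. So were FOS, LIF and EPHA2 in OCI-AML3. ERRFI1, HRAS and MAP2K2 were also given in comparisons where the rule did not pick them. Alternatives were other scalings, filters, DESeq2 1.42.0, only the groups compared, blocking on replicate number, leaving out each library, and demanding a log2 fold change above 1. One further marker list is not reported here. No libraries had identical counts, and no count columns lay outside the 11 samples.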

Additional observations from a re-analysis of the deposited data

Results flagged for a closer look

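The effect of FHD-286 differed between the lines for 7 of 60 tested genes of the set and its pathway lists by the edgeR interaction test, 0 higher and 7 lower in the FLT3-ITD line. Of all genes tested, 1.98% were higher, 1.38% lower and 3.36% called. Without the library labelled as control replicate 2 of OCI-AML3-FLT3-ITD, 22 were called, 8 higher and 14 lower. The shares of all genes in that fit were 9.63% higher, 7.39% lower and 17.0% called. Values are the log2 effect in the FLT3-ITD line minus that in OCI-AML3, with the fit that omits that library second: DUSP1 -1.15 (-1.19), GAB2 -0.92 (-0.74), SOS2 -0.53 (-0.49), KSR1 -1.25 (-1.10), EGR1 -2.28 (-2.56), EGR2 -2.14 (-2.25) and HBEGF -1.67 (-1.45). All 7 were called in both fits. The call for DUSP1 was kept in 3 of the 11 fits leaving out 1 library, and such fits are not given here for the other genes. Over all genes, those fits called 105 to 3177. HBEGF, a ligand of the EGF receptor family, was not called in OCI-AML3 and fell in the FLT3-ITD line (-1.55 ± 0.18). The part of library composition in these differences was not tested.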

How the results depend on the processing

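The counts of called genes among the 10 are given in the order FHD-286 in OCI-AML3, FHD-286 in the FLT3-ITD line, control lines, treated lines and difference of effects. They were 7, 2, 6, 4 and 1, against 7816, 5767, 5289, 4916 and 635 of the 18908 genes tested. Leaving out 1 library gave 4 to 9, 2 to 7, 5 to 10, 2 to 7 and 0 to 1. Over all genes, those fits called 6132 to 10973, 2908 to 9140, 2914 to 9223, 1909 to 8756 and 105 to 3177. Requiring a log2 fold change above 1 gave 1, 1, 0, 0 and 0. In all genes it gave 429 higher and 499 lower, 191 and 427, 28 and 2, 132 and 51, and 0 and 3. Fitting only the groups compared gave 10, 1, 4 and 7 for the comparisons of groups. In all genes it gave 5677 higher and 5656 lower of 16875, and 730 and 888 of 18074. Between the lines it gave 1078 and 658 of 16750 in controls and 4877 and 4704 of 17887 with FHD-286. Deviations from the group means correlated at -0.029 to 0.122 over 15 same-numbered pairs of libraries from different groups. Pairs with unlike numbers gave -0.203 to 0.192 over 30 pairs. Deviations within groups of 2 or 3 libraries are tied to each other, so these values cannot exclude pairing. The main fit did not take the numbers as pairs. A replicate block gave 6, 2, 5, 4 and 1, losing DUSP6 in OCI-AML3 and DUSP5 between control lines. In all genes the block gave 3579 higher and 3929 lower, 2709 and 2461, 2390 and 2324, 2566 and 1893, and 203 and 146.

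Some values changed sign between fits. Over the fits leaving out 1 library, the FLT3-ITD drug effect ran from -0.16 to 0.16 for DUSP6 (0.06 with library totals, 0.04 without treated replicate 2), from -0.29 to 1.39 for SPRY1 (-0.24 without control replicate 3) and from -0.09 to 0.53 for SPRY4 (-0.03 without control replicate 3). The highest of each came without control replicate 2 of that line. Between control lines SPRY2 ran from -0.28 to 0.18 and SPRED1 from -0.26 to 0.00, lowest without that library. For the difference of effects the ranges were -0.15 to 0.03 for DUSP2, -0.39 to 0.09 for DUSP4, -0.13 to 0.13 for SPRED1 (0.08 without treated FLT3-ITD replicate 2) and -0.19 to 0.09 for SPRED2, which was 0.03 with a replicate block and 0.00 without OCI-AML3 control replicate 1. Of these, SPRY1 at 1.39, SPRY4 at 0.53, SPRY2 at -0.28 and SPRED1 at -0.26 were called, each without control replicate 2 of the FLT3-ITD line. The cause of the sign changes was not tested.

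Library totals in place of TMM moved the all-gene median from 0.015 to 0.169 in OCI-AML3 and the split of calls from 3742 higher and 4074 lower to 5161 and 3025. In the FLT3-ITD line the split moved from 2957 and 2810 to 4032 and 2254, and between control lines from 2738 and 2551 to 3457 and 1648 (3282 and 1957 with upper quartile factors). For the difference of effects it moved from 375 and 260 to 308 and 374 with upper quartile factors, 318 and 307 with library totals and 275 and 401 with no filter. Among the 10 in the FLT3-ITD line, 1 rose and 1 fell, against 1 and 2 with DESeq2 or upper quartile factors and 2 and 1 with library totals. The split of all genes there was 2803 and 2975 with DESeq2 size factors and 2824 and 3142 with upper quartile factors.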
